A study of Mus musculus with 16 samples.

Results

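Cluster 12 of the deposited cell table, which its authors named Immuno, was compared with Cluster 10, which they named Microglial, inside each mouse of a single-cell RNA survey of injured mouse spinal cord. The cells are those the table assigns to each cluster, and a mouse entered the comparison where it had at least 10 cells in both. This held for 10 of 16 mice, with 261 of the 288 cells of Cluster 12 and 668 of the 813 cells of Cluster 10, out of 18203 cells in all. Just inside that limit were WT replicate 1 and cKO replicate 1 at 14 d, with 10 cells of Cluster 12 each, and just outside it was WT replicate 2 at 14 d, with 8. The question is which genes separate immune cells that came into, or sit at the borders of, the lesioned cord from the microglia that live in it, and whether that separation differs with time after injury or with genotype.

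Microglia settle in the cord before birth, renew themselves there, and in health keep a set of surveillance genes that wanes when tissue is damaged. After spinal cord injury, monocytes enter from the blood and turn into macrophages beside them, together with some dendritic cells and lymphocytes, while border-associated macrophages live in the meninges and around vessels. MHC class II molecules load peptides from engulfed material and show them to helper T cells, and are carried mainly by dendritic cells, B cells and some macrophages.

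The study sequenced cells from cord tissue around a lesion of the dorsal columns with the 10x Genomics droplet method, each library from a single mouse aged 8-10 weeks. WT mice carried Ryk+/+,GFAPcreERT2 and cKO mice carried Rykfl/fl,GFAPcreERT2, so both genotypes bear the tamoxifen-inducible Cre, which the GFAP promoter drives in astrocytes. Ryk, a Wnt receptor, is therefore deleted in astrocytes by design and not in immune cells or microglia. Mice were perfused through the heart, the tissue was digested with pronase in buffers with actinomycin D, an inhibitor of transcription, and dead cells were removed. The labels give no strain. Ryk itself had 19 UMIs in Cluster 12 and 66 in Cluster 10 over the compared mice, below the level at which a gene was compared.

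The compared mice were 4 WT and 6 cKO. Without injury, labelled Sham, there was 1 WT mouse, replicate 2, and no cKO mouse. At each of 1, 7 and 14 days after SCI there were 3 mice, namely WT replicate 1 with cKO replicates 1 and 2. Each replicate number is also the batch number of the cell table in 16 of 16 mice, so all 3 injured WT mice are from the same batch. Cluster 12 had 10 to 45 cells per mouse (median 24) and Cluster 10 had 28 to 175 (median 62.5). Their summed depth ran from 11044 to 326848 UMIs per mouse in Cluster 12 (median 48251.5) and from 24546 to 978701 in Cluster 10 (median 183620). The median cell of a mouse had 412.5 to 13995 UMIs in Cluster 12 and 622.5 to 13048 in Cluster 10, a figure that was higher in Cluster 12 in 4 of 10 mice. The median mitochondrial share was higher in Cluster 12 in 0 of 10 mice.

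Several libraries go against their labels or stand apart. The names of the cells carry a condition that differs from the sample title in 6 mice, of which 2 were compared: cKO replicate 2 at 14 d is named there as cKO at 7 d, and the uninjured WT mouse as an uninjured cKO mouse. The titles were used. There were 166 barcodes in more than 1 library, held by 432 cells, 35 of them in Clusters 12 and 10. In cKO replicate 1 at 7 d, Cluster 12 itself carried genes of damage-associated microglia at the level of Cluster 10, a summed 93196 against 96634 CPM (UMIs scaled to a common total in every mouse and cluster). The 1 d mice were near equal in that sum too, at 30868 against 27662 CPM in WT replicate 1, 22993 against 26637 in cKO replicate 1 and 15358 against 13340 in cKO replicate 2, while in the other 2 mice at 7 d Cluster 12 had 26621 against 88152 and 5216 against 43986. Some values below are also given without cKO replicate 1 at 7 d.

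Markers of more than 1 kind of cell are found in Cluster 12. Cells with UMIs of at least 2 monocyte markers made up 72.9% of Cluster 12 (95% Clopper-Pearson interval 67.4 to 78.0, 288 cells) and 26.3% of Cluster 10 (23.3 to 29.5, 813 cells). Damage-associated microglia genes were in more cells of Cluster 12, 75.7% (70.3 to 80.5), and in 94.1% of Cluster 10. In Cluster 1, named Endothelial, where 82.1% of cells carried at least 2 endothelial markers, the monocyte share was 9.45% (median 890 UMIs per cell, against 1015.5 and 1119 in Clusters 12 and 10). Whether those UMIs in Cluster 1 are free RNA or its own was not tested. With every cell thinned to 500 UMIs the monocyte shares were 55.8% in Cluster 12, 8.22% in Cluster 10, and 44 of 3154 cells of Cluster 1. These intervals, and the floors and ratios below, cover counting error only.

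Markers of other immune cells were found in smaller shares of Cluster 12. Thinned to 500 UMIs, 29.2% of its cells carried at least 2 MHC class II genes against 2.02% in Cluster 10, and 11.6% carried border macrophage markers against 1.35%. B cell markers were in 12.4% of thinned cells against 0 of 742. For that 0, a floor of 3 cells is 0.404% and the Clopper-Pearson interval reaches 0.496%, both of thinned cells with such UMIs. Unthinned, 14 of 813 cells of Cluster 10 had them. Of the 39 unthinned Cluster 12 cells with B cell markers 18 came from the uninjured mouse. T cell markers were in 3.86% and NK cell markers in 1.29% of thinned Cluster 12 cells. These groups overlap. Of 76 unthinned cells with border macrophage markers 60 also had monocyte markers, near the share in the whole cluster, 210 of 288. All 16 cells with dendritic cell markers had monocyte markers too, and 15 of them had homeostatic microglia markers. These overlaps are unthinned and depend on depth. Entry from the blood and residence at the borders cannot be told apart for these cells by such counts, and the cluster is called by its number.

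Cluster 10 has the markers of microglia. At least 2 homeostatic microglia genes were found in 90.9% of its cells and 35.8% of Cluster 12, or 75.3% and 9.01% after thinning, with 5.14% in Cluster 1. Cluster 6, which the authors also named Microglial, had 97.6% after thinning. Genes of damage-associated microglia were in 87.2% of thinned Cluster 10 cells, 74.9% of Cluster 6 and 63.5% of Cluster 12, so most cells of all 3 carry them. Of the clusters named Microglial, Cluster 10 is the one with the lower homeostatic and higher damage-associated share. In Cluster 12, 93 of 210 cells with monocyte markers also had at least 2 homeostatic genes. No doublet caller was run, and the part of doublets or free RNA in these cells was not tested.

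Cluster 12 made up 11.9% to 56.4% of the cells of both clusters. In the uninjured WT mouse it held 33 of its cells, 54.1% (interval 40.8 to 66.9), but 18 of those 33 had B cell markers and 12 had monocyte markers. At 1 d, monocyte markers were in 38 of 44 cells of WT replicate 1, 36 of 45 of cKO replicate 1 and 20 of 22 of cKO replicate 2. In the same order they were in 15 of 26, 17 of 34 and 21 of 22 cells at 7 d, and in 8 of 10, 10 of 10 and 13 of 15 cells at 14 d. MHC class II markers were in 6 of 44, 10 of 45 and 3 of 22 cells at 1 d, in 12 of 26, 7 of 34 and 14 of 22 cells for 7 d, and in 4 of 10, 9 of 10 and 10 of 15 cells at 14 d. These counts are unthinned, and the median Cluster 12 cell had 595.5, 673 and 5778 UMIs at 1 d, 412.5, 866.5 and 13995 for 7 d, and 3804, 11825.5 and 6285 for 14 d, so they cannot be compared between mice.

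For each gene, UMIs were summed per mouse and cluster and scaled to CPM, and the difference is the log2 ratio of Cluster 12 to Cluster 10 in the same mouse with 50 CPM added to both. Because the clusters were made from these same counts, the differences are a description and carry no p-value. A gene was called higher or lower where its mean difference was at least 1 in size and had the same sign in all 10 mice. Of 4178 genes with enough counts, 93 were called higher in Cluster 12, 2.23% of those compared, and 91 lower, 2.18%, together 184 or 4.40%. After TMM scaling the counts were 60 higher and 139 lower. The median difference over all 4178 genes was 0.07, or -0.15 with TMM, under which the median of 1 list changed sign (transcription factors). Levels in the 10 mice of Cluster 12 lay wholly above those of Cluster 10 for 36 of the 93 genes, and wholly below for 16 of the 91.

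**Figure D1:**
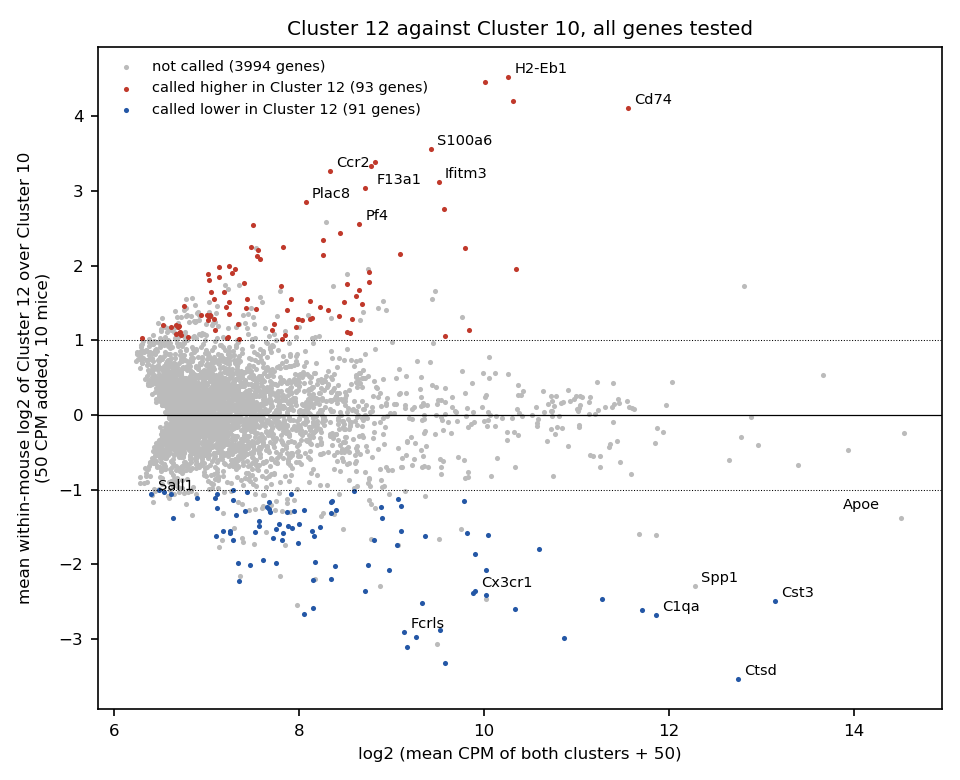
Mean log2 difference between Cluster 12 and Cluster 10 over 10 mice (vertical axis) against mean level over both clusters (horizontal axis) for 4178 genes, 1 point per gene. The 93 genes called higher reach 4.53 (H2-Eb1) and the 91 called lower reach -3.53 (Ctsd).

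Of 13 compared genes of monocytes 6 were called higher and 0 lower, with a median difference of 2.09 against 0.07 for all genes, or 2.85 with genes unseen in Cluster 10 set at the floor of 3 counts. Ccr2, the receptor that lets monocytes leave the marrow and follow Ccl2, measured 92.8 CPM at the lowest, 583 at the median and 943 at the highest in Cluster 12, and 0, 0 and 40.7 CPM in Cluster 10. The ranges do not overlap, and the difference was 3.27 ± 0.93 (SD, n = 10 mice). The lowest value in Cluster 12 is that of cKO replicate 1 at 7 d.

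F13a1, the A subunit of coagulation factor XIII and a gene of monocytes and some resident macrophages, ran from 248 through a median of 658 to 1591 CPM in Cluster 12 and from 0 through 7.73 to 122 CPM in Cluster 10. Its difference was 3.34 ± 0.68 (SD, n = 10), with no overlap. The calcium-binding proteins S100a6 and S100a4, which are abundant in motile leukocytes, differed by 3.56 ± 1.14 and 3.38 ± 1.38. Itga4, the integrin chain with which leukocytes hold on to inflamed vessels, differed by 2.09 ± 0.68.

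Some monocyte genes were all but missing from Cluster 10. Plac8 had 432 UMIs in Cluster 12 and 1 in Cluster 10, a ratio of 1283 in pooled CPM (95% counting interval 229 to 50808). Ly6c2, which marks the inflammatory monocytes of mouse blood, had 157 UMIs against 0, at least 155-fold higher against a floor of 3 counts pooled over the group. It was at 0 in Cluster 12 of 3 mice too and so was not called. Chil3, a chitinase-like protein of young monocytes, had 154 UMIs against 1, a ratio of 458 (80.9 to 18187), and was higher in 9 of 10 mice. Plbd1, a phospholipase B-like protein of myeloid cells outside the list, had 293 UMIs against 2, a ratio of 435 (119 to 3611).

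The list also holds genes that both clusters use. Lyz2, lysozyme, was at 2999 to 37161 CPM in Cluster 12 and 299 to 8599 CPM in Cluster 10, higher in 9 of 10 mice with a mean difference of 1.73 ± 1.48. Fn1, fibronectin, lay between 25.5 and 4881 CPM in Cluster 12 and between 0 and 1251 CPM in Cluster 10, and was higher in 7 mice and lower in 3.

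MHC class II genes gave the 4 highest differences among called genes. Of the 7 genes of the list 5 were called higher and 0 lower, with a median difference of 4.11 against 0.07 for all genes. H2-Eb1, the beta chain of the I-E molecule, lies at 34305867 to 34316674 on chromosome 17 of mm10 (plus strand, ENSMUSG00000060586.11). In Cluster 12 it measured 295 CPM in the lowest mouse, 1936 at the median and 7188 in the highest, and in Cluster 10 it measured 0, 5.01 and 81.5 CPM. Every mouse of Cluster 12 stood above every mouse of Cluster 10, and the difference of 4.53 ± 1.90 (SD, n = 10) was the highest of all called genes.

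The chains of the I-A molecule went with it. H2-Aa, its alpha chain (chromosome 17, 34282744 to 34287823, minus strand), ran from 278 through 1631 to 5157 CPM in Cluster 12 and from 0 through 3.38 to 125 CPM in Cluster 10, a difference of 4.46 ± 1.48. H2-Ab1, its beta chain (34257689 to 34269419, plus strand), differed by 4.21 ± 1.62. Cd74, the invariant chain that keeps the peptide groove blocked until the endosome, is the most abundant of the list, with 1012, 4688 and 13254 CPM in Cluster 12 and 41.2, 163 and 625 CPM in Cluster 10. Its difference was 4.11 ± 1.76, again with no overlap.

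Ciita, the coactivator that switches these genes on, was called as well. It had 136 UMIs in Cluster 12 and 2 in Cluster 10, a ratio of 202 (counting interval 54.9 to 1685), and a difference of 1.46 ± 0.90. The chains of H2-DM, which exchanges the invariant chain fragment for a peptide, stood lower. H2-DMb1 differed by 1.02 ± 1.02 and H2-DMa by 0.52 ± 0.76, each higher in 7 of 10 mice and not called.

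Cells with MHC class II genes in Cluster 12 also carried markers of several kinds of cell. Of 97 such cells 67 also had monocyte markers, 47 homeostatic microglia markers, 38 border macrophage markers, 19 B cell markers and 14 dendritic cell markers. The summed level of the B cell list in Cluster 12 was 4406 CPM in the uninjured mouse, 1690 in cKO replicate 2 at 14 d and 858 or less in the other 8. MHC class II sums were lowest in that same uninjured mouse, at 2080 CPM. The part of each kind of cell in the MHC class II level was not tested.

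**Figure D2:**
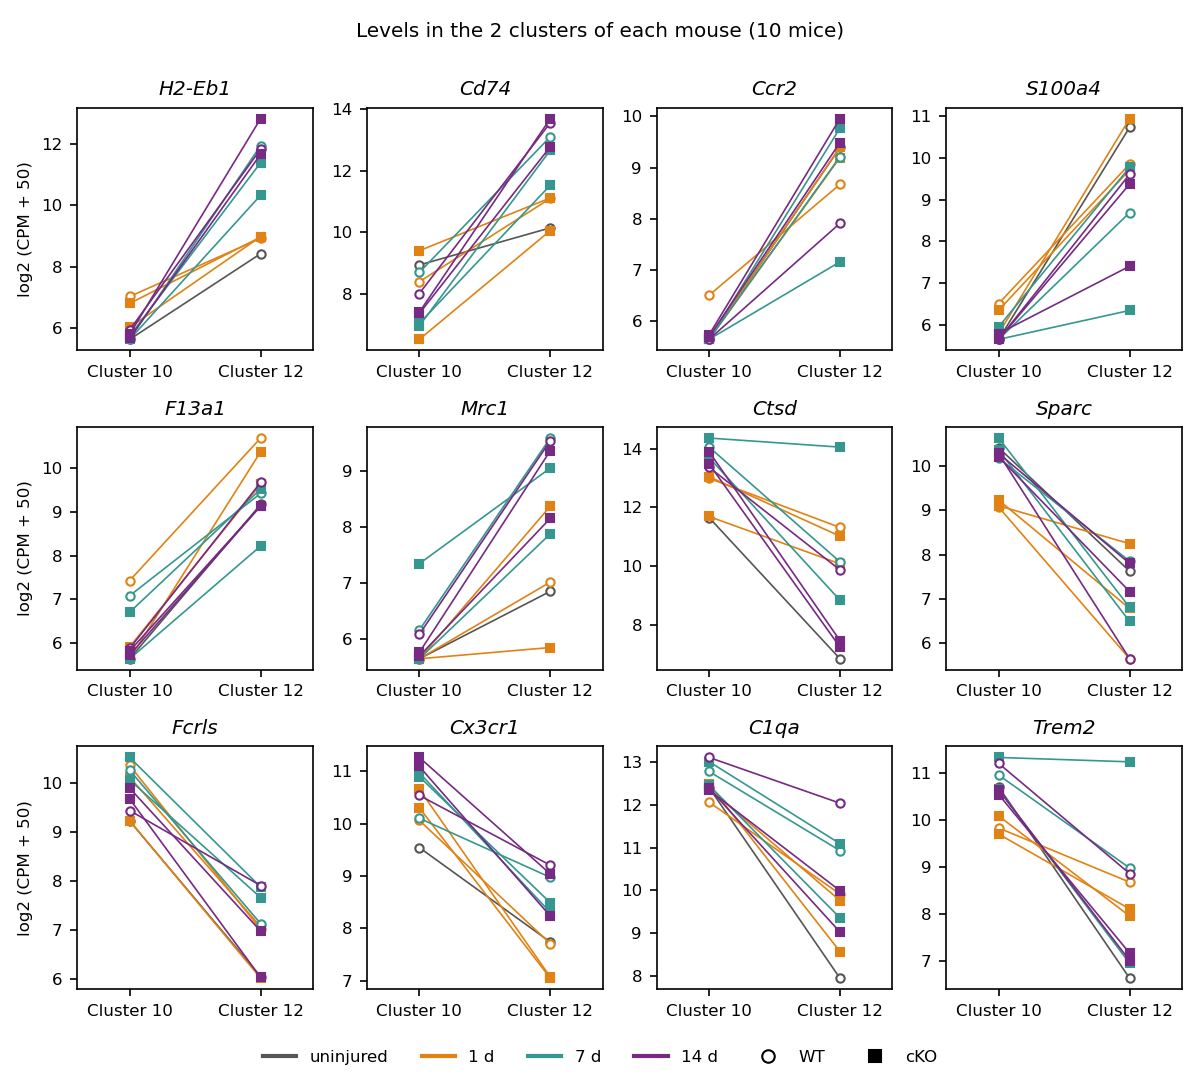
Level of 12 genes in Cluster 10 and Cluster 12 of each of 10 mice, as log2 of CPM with 50 added; each line joins the same mouse. H2-Eb1, Cd74, Ccr2, S100a4, F13a1 and Mrc1 are higher in Cluster 12 in 10 of 10 mice, and Ctsd, Sparc, Fcrls, Cx3cr1, C1qa and Trem2 are lower in 10 of 10.

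Border macrophage genes varied between mice. Of 9 compared genes 2 were called higher and 0 lower, and the list median was 0.95 (1.01 with bounds). Mrc1, the mannose receptor CD206, ran from 7.50 through 259 to 724 CPM in Cluster 12 and from 0 through 0.824 to 113 CPM in Cluster 10, a difference of 2.25 ± 1.12. Pf4, a chemokine of platelets that border macrophages also make, differed by 2.56 ± 1.36. Cd163, which takes up haemoglobin bound to haptoglobin, was higher in 9 of 10 mice and never lower, with 634 CPM in WT replicate 1 at 7 d. Lyve1, a hyaluronan receptor of perivascular macrophages, had 65 UMIs in Cluster 12 and 0 in Cluster 10, at least 64.4-fold higher, and was seen in 5 of 10 mice.

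The lists of lymphocytes and dendritic cells gave no calls. Of their compared genes, 0 of 2 T cell, 0 of 1 NK cell, 0 of 4 B cell and 0 of 3 dendritic cell genes were called, with list medians of 1.05, 0.64, 1.21 and 0.86. These rest on few mice: the dendritic cell median was 0.07 without WT replicate 1 at 7 d and -0.01 without cKO replicate 1 at 14 d, and the NK cell list had no gene left without the uninjured mouse, cKO replicate 2 at 1 d or cKO replicate 2 at 7 d. Genes outside the lists are not counted here. The genes named next are members of these lists. Igkc, the kappa light chain of antibodies, had 198 UMIs against 0, at least 196-fold higher, at 1277 CPM in the uninjured mouse and 723 CPM in cKO replicate 2 at 14 d, and at 0 in 6 mice. Trbc2, a constant region of the T cell receptor, had 54 UMIs against 0 (at least 53.5-fold), and Gzma, a granule protease of killer cells, had 77 against 0 (at least 76.3-fold). Cd209a, a lectin of monocyte-related dendritic cells, had 119 against 0, at least 118-fold higher. Fscn1, which bundles actin in mature dendritic cells, went the other way at -0.98 ± 0.77, and without cKO replicate 1 at 1 d it was called lower.

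Neutrophils left few traces. Ly6g, their defining surface marker, had 0 UMIs in both clusters, and S100a8, their most abundant calcium-binding protein, had 12 and 18. Of the 10 genes of the list 2 had enough counts and 0 were called, with a median of -0.20. That median was -0.95 (1 gene) without cKO replicate 1 at 1 d and -0.08 without cKO replicate 1 at 14 d. Lcn2, a siderophore-binding protein, stood at 2031 CPM in Cluster 12 of cKO replicate 1 at 1 d and at 0 in 8 of the 10 mice.

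Of 12 compared genes of homeostatic microglia 6 were called lower in Cluster 12 and 0 higher, with a median difference of -1.88 (-2.17 with bounds) against 0.07 for all genes. Fcrls, an Fc receptor-like molecule of microglia, had levels of 15 to 191 CPM in Cluster 12 and 549 to 1421 in Cluster 10, a difference of -2.90 ± 0.59 with no overlap. Cx3cr1, the receptor through which microglia sense neuronal fractalkine and which patrolling monocytes share, differed by -2.36 ± 0.78, also with no overlap. Sparc, a secreted matrix protein, Olfml3, a secreted olfactomedin-like protein, and Gpr34, a lysophospholipid receptor, differed by -2.97, -2.58 and -1.98.

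Sall1, the transcription factor that defines microglial identity, had 0 UMIs in Cluster 12 and 230 in Cluster 10, at least 25.8-fold lower in Cluster 12. It was at 0 in Cluster 10 of 3 mice and so was not called. P2ry12, the purine receptor of resting microglia, lay at 15.7 to 95.3 CPM in Cluster 12 and 40.7 to 768 CPM in Cluster 10, lower in 9 of 10 mice with a mean difference of -1.22 ± 1.20. Tmem119, another marker of resting microglia, had 8 UMIs against 403 and was lower in 9 of 10 mice.

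The complement genes C1qa, C1qb and C1qc, which code for the chains of the molecule that opens the classical pathway, were called lower, 3 of the 4 genes of the list, whose median was -2.54. C1qa measured 197, 867 and 4163 CPM in Cluster 12 (lowest, median and highest mouse) and 4237, 5484 and 8794 CPM in Cluster 10. The ranges do not touch, and the difference was -2.68 ± 1.03. C1qb and C1qc differed by -2.62 ± 1.27 and -2.46 ± 0.93. C3ar1, the receptor for the C3a fragment, was lower in 8 of 10 mice at -0.94 ± 0.98.

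Of 16 compared genes of damage-associated microglia 2 were called lower and 0 higher, and the list median was -1.58. Trem2, a lipid-sensing receptor needed for this state, ran from 49.1 through 211 to 2352 CPM in Cluster 12 and from 778 through 1541 to 2512 CPM in Cluster 10, a difference of -2.40 ± 1.28. Cd9, a tetraspanin, differed by -2.38 ± 1.25. The count of called genes was 4 without the uninjured mouse, and 3 without cKO replicate 2 at 1 d or without cKO replicate 1 at 7 d, with a median of -1.65 in the last case.

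Several of these genes were lower in most mice without meeting the call. Cd63, a tetraspanin of late endosomes, was lower in 9 of 10 mice at -2.46 ± 1.11, and Lpl, lipoprotein lipase, in 9 of 10 at -3.07 ± 1.70. Apoe, the lipid carrier, was the most abundant gene of the list in both clusters, at 1642, 5316 and 58944 CPM in Cluster 12 and 933, 33257 and 80285 CPM in Cluster 10. It was lower in 8 of 10 mice at -1.38 ± 1.51, with the 58944 CPM again in cKO replicate 1 at 7 d. Gpnmb, a glycoprotein of lipid-laden phagocytes, stood at 9778 CPM in Cluster 12 of that mouse against 1386 in its Cluster 10, and at 0 to 90.5 CPM in Cluster 12 of the other 9.

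Of 16 compared lysosomal genes 6 were called lower and 0 higher, with a median of -1.08 against 0.07 for all genes. Ctsd, the aspartic protease cathepsin D (chromosome 7, 142375911 to 142388038, minus strand, ENSMUSG00000007891.16), ran from 65.5 through 962 to 16956 CPM in Cluster 12 and from 3183 through 10972 to 21016 CPM in Cluster 10. Its difference of -3.53 ± 2.08 was the lowest of all called genes, and -3.89 without cKO replicate 1 at 7 d, where it was only -0.31.

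Other proteases went the same way. Ctsl, Ctsz and Ctsa, further cathepsins, differed by -2.60, -1.80 and -1.21, Lgmn, the asparaginyl protease legumain, by -1.86, and Grn, the lysosomal protein progranulin, by -1.61. Ctsb and Ctss, cathepsins used by most macrophages, were lower in 9 of 10 mice at -1.60 and -1.59. Psap, the precursor of the saposins, and Ctsc, which activates granule proteases, showed little difference, at 0.06 ± 0.77 and 0.25 ± 0.79. Without cKO replicate 1 at 7 d, 8 genes were called lower and the median was -1.17.

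Lipid and iron genes differed less in their median, though all 9 compared genes had a mean below 0. Lpl and Apoe, given above at -3.07 and -1.38, are also on this list. Of 9 compared genes 1 was called lower, Abca1, which exports cholesterol, at -1.17 ± 1.07, and the list median was -0.66. Abca1 missed the call without cKO replicate 2 at 14 d, which left 0 called genes, and without the uninjured mouse there were 2. Fth1 and Ftl1, the ferritin chains that store iron, differed by -0.66 ± 0.81 and -0.60 ± 1.00. Hmox1, which breaks down haem, had a difference from -3.32 to 2.80 over the mice.

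Secreted signals split between the clusters. Of 13 compared chemokine and cytokine genes 1 was called higher and 2 lower, with a median of 0.24, or 0.03 after TMM scaling. Single mice moved that median, to 0.04 without cKO replicate 2 at 1 d and 0.45 without WT replicate 1 at 7 d. Il1b, the precursor of interleukin-1 beta, measured 49.1, 162 and 841 CPM in Cluster 12 and 0, 2.47 and 90.9 CPM in Cluster 10, a difference of 1.77 ± 0.55. Ccl4 and Ccl3, chemokines that activated microglia secrete, were lower, by -2.88 ± 1.53 and -2.36 ± 0.81. Ccl4 ran from 0 to 251 CPM in Cluster 12 and from 308 to 2927 CPM in Cluster 10. Without cKO replicate 1 at 7 d, Ccr1, a receptor of inflammatory chemokines, was also called, which made 2 higher and 2 lower.

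Receptors for debris and antibodies divided by gene. Of 10 compared genes 1 was called higher, Mrc1, and 2 lower, Mertk and Cd14, with a median of -0.21 that ran from -0.73 to 0.17 over the processing choices tried. Mertk, which recognises dying cells, ran from 7.86 to 199 CPM in Cluster 12 and from 183 to 545 CPM in Cluster 10, a difference of -1.63 ± 0.75. Cd14, the coreceptor for endotoxin and a marker of monocytes in other settings, was lower in Cluster 12 at -1.27 ± 0.46. Msr1, a scavenger receptor, was at 0.01 ± 0.74, higher in 5 mice and lower in 5.

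Of 15 compared genes of cell shape and movement 4 were called higher and 0 lower, with a median of 1.30 (1.67 with bounds). Ahnak, a large scaffold protein under the membrane, measured 217, 568 and 1635 CPM in Cluster 12 and 2.96, 24.3 and 81.5 CPM in Cluster 10, a difference of 3.05 ± 1.00 with no overlap. Crip1, a small LIM domain protein, Lsp1, an actin-binding protein of leukocytes, and Tmsb10, which binds free actin, differed by 2.77, 2.43 and 1.96. Itgb7, an integrin chain that pairs with Itga4, had 89 UMIs against 0, at least 88.1-fold higher. Itgb5, the integrin chain used in engulfing dying cells, went the other way in 8 of 10 mice at -1.74 ± 1.34. The list median was 0 in cKO replicate 1 at 7 d, and without that mouse 6 genes were called.

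Among 5 compared interferon genes 1 was called higher. Ifitm3, which blocks virus entry and is abundant in monocytes, measured 402, 1250 and 2066 CPM in Cluster 12 and 21.4, 94.3 and 227 CPM in Cluster 10, a difference of 3.12 ± 0.81 with no overlap. Ifi27l2a, an interferon-induced mitochondrial protein, was at 1.95 ± 0.90 and higher in 9 of 10 mice. It also met the call without cKO replicate 1 at 7 d, where it was at -0.36. Isg15 and Bst2, more typical interferon targets, were at 0.21 ± 0.71 and -0.14 ± 0.69, and the list median was 0.71. Without WT replicate 1 at 1 d, or without cKO replicate 1 at 1 d, that median was 1.27 over 4 genes.

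Of 13 compared transcription factors 1 was called, Klf4, a factor of monocyte differentiation, at 1.44 ± 0.73. Spi1, the PU.1 factor common to all macrophages, was close in both clusters, at 186 to 438 CPM in Cluster 12 and 110 to 321 CPM in Cluster 10 (difference 0.31 ± 0.45). Runx3, a factor of lymphocytes and dendritic cells, was higher in 8 of 10 mice at 1.18 ± 0.92. The list median of 0.31 turned to -0.01 after TMM scaling.

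Of 7 compared genes that dissociation can switch on 1 was called, Jun, an immediate early factor, at 1.44 ± 0.74, and the list median was 0.86. Its partner Fos was higher in 9 of 10 mice at 1.89 ± 1.08, and it also met the call without cKO replicate 1 at 14 d, which made 2. Egr1 and Atf3, other early response factors, were at -0.07 and -0.78. Of 1 compared cell cycle gene, Stmn1, a tubulin-binding protein of dividing cells, 0 were called (-0.18 ± 0.63). Stmn1 was at -0.04 without WT replicate 1 at 1 d and at -0.30 without cKO replicate 2 at 7 d. Ribosomal and mitochondrial genes gave 0 calls of 84 and 0 of 14.

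Lists of other tissues gave no calls. Astrocyte, oligodendrocyte, neuron, endothelial, red blood cell and fibroblast lists gave 0 calls, with medians of -0.27, -0.49, -0.16, -0.07, -0.94 and 0.95 over 2, 3, 1, 2, 4 and 1 compared genes. Single mice moved them: the endothelial median was 0.47 without cKO replicate 2 at 1 d and -0.73 without cKO replicate 2 at 14 d, the neuron median ran from -0.55 to 0.05, the red blood cell median was -0.42 (1 gene) without cKO replicate 2 at 1 d, and no fibroblast gene was left without cKO replicate 1 at 14 d. The oligodendrocyte median was -0.30 without cKO replicate 1 at 7 d. The astrocyte sum was 0 to 459 CPM in Cluster 12 and 31.3 to 842 CPM in Cluster 10, lower in 10 of 10 mice. The oligodendrocyte sum, mostly Mbp, was 381 to 3095 CPM in Cluster 12 and 772 to 4720 CPM in Cluster 10, lower in 8 of 10 mice. The red blood cell sum, mostly the haemoglobin chain Hbb-bs, was 0 to 186 CPM and 2.04 to 16215 CPM, lower in Cluster 12 in 10 of 10. The 16215 CPM was in Cluster 10 of cKO replicate 2 at 1 d. The single fibroblast gene was Dcn, decorin, higher in Cluster 12 in 8 of 10 mice, with 977 CPM in Cluster 12 of cKO replicate 1 at 14 d.

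Further called genes come from no list. On the lower side, Plxdc2, a plexin domain protein, measured 0 to 259 CPM in Cluster 12 and 505 to 2167 CPM in Cluster 10, a difference of -3.31 ± 0.52 with no overlap. Fgf13, an intracellular relative of the fibroblast growth factors, Nav3, a microtubule-binding navigator protein, and Cd81, a tetraspanin, differed by -3.10, -2.66 and -2.52. Cst3, the secreted cathepsin inhibitor cystatin C, was at 1237 to 5943 CPM in Cluster 12 and 8940 to 47823 CPM in Cluster 10, a difference of -2.49 ± 1.11.

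Of the MHC class II genes, H2-Eb1 passed a test for a change with time after injury. H2-Eb1 measured 438 CPM in Cluster 12 of WT replicate 1, 451 in cKO replicate 1 and 457 in cKO replicate 2 at 1 d. In the same order it measured 3894, 1238 and 2634 CPM a week after injury and 3591, 7188 and 3191 CPM at 14 d, and the uninjured mouse had 295. Cluster 10 had 81.5, 62.5 and 15.5 CPM at 1 d, then 0, 0 and 3.89 CPM for 7 d, and last 11.8, 6.13 and 1.65 CPM for 14 d. Every mouse at 7 and 14 d was above every mouse at 1 d in Cluster 12 and below them in Cluster 10.

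The difference of H2-Eb1 was 2.33 ± 0.55 at 1 d, 5.54 ± 0.81 at 7 d and 6.29 ± 0.63 at 14 d (SD, n = 3 each). The change of the difference between times was tested with an edgeR fit of 1297 genes that has a term for each mouse, for cluster, and for cluster by genotype and by time. From 1 d to 7 d, 1 gene passed an adjusted p of 0.05, 0.0771% of those tested, and it was H2-Eb1. Its difference rose by 6.03 ± 0.95 (log2, SE) with an edgeR adjusted p of 0.0164, and all 3 mice at 7 d were above all 3 at 1 d. The fitted value has no 50 CPM added, unlike the means above. It rests on few Cluster 10 UMIs of H2-Eb1 (2, 2 and 3 at 1 d, then 0, 0 and 1 for 7 d) and is no exact fold. The SE of this and later fits is the size of the change over the square root of its F statistic. At such counts it is only a rough guide. Over 18 alternatives the value lay between 4.60 and 8.24 and the adjusted p between 0.00125 and 0.427, past the threshold in 10. At an unadjusted p of 0.05 there were 119 genes. DESeq2 called 2 genes and limma 0.

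That call rests on single mice. In edgeR 0 genes passed without WT replicate 1, cKO replicate 1 or cKO replicate 2 at 1 d, without WT replicate 1 or cKO replicate 2 at 7 d, or without cKO replicate 1 at 14 d. Without cKO replicate 1 at 7 d there were 37, H2-Eb1 among them. The replicate block is given with the other alternatives in the closing section.

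Of the other MHC class II genes, Cd74 was at 2.66 ± 0.91, 4.88 ± 0.73 and 5.76 ± 0.47 at 1, 7 and 14 d, and H2-Ab1 at 2.97 ± 0.27, 4.68 ± 0.70 and 5.91 ± 0.64 (SD, n = 3 each). Means of Ciita were 0.84, 2.05 and 1.83 and those of H2-DMb1 0.18, 1.80 and 1.60, lower at 14 d than at 7 d. In the edgeR fit the adjusted p of Cd74 and H2-Ab1 for 7 d against 1 d were 0.262 and 0.416, with changes of 2.51 and 2.50, so neither passed. For each, all 3 mice at 7 d were above all 3 at 1 d. The list median was 1.21 in the uninjured mouse, 2.33 at 1 d, 4.68 at 7 d and 5.76 at 14 d, against 0.27, 0.07, 0.02 and 0.03 for all genes. B cell markers were in 1, 0 and 1 cells of the mice at 1 d (WT replicate 1, cKO replicate 1, cKO replicate 2), in 0, 0 and 5 at 7 d, and in 1, 2 and 2 at 14 d. Dendritic cell markers, in the same order, were in 0, 0 and 2 cells for 1 d, 0, 0 and 7 for 7 d, and 0, 4 and 2 for 14 d. These counts are unthinned and cannot be compared between mice. The median Cluster 12 cell at 7 d had 412.5, 866.5 and 13995 UMIs in the same order. The part of B cells and dendritic cells in the change was not tested.

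**Figure D3:**
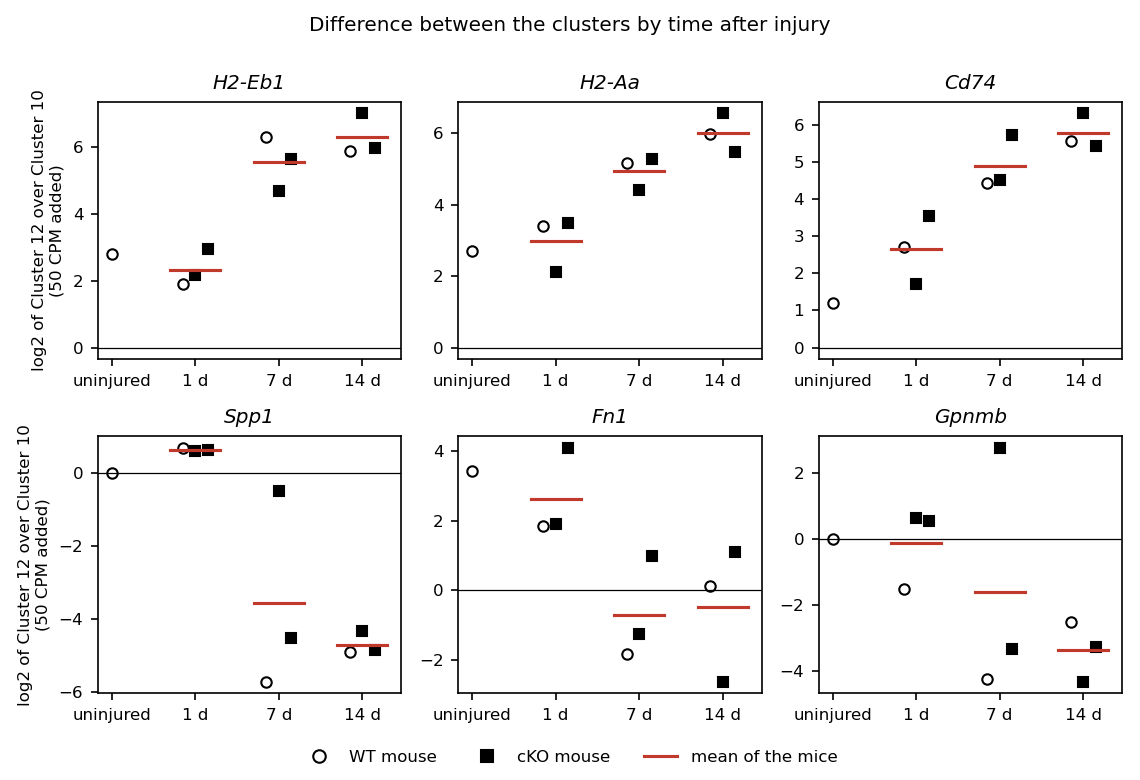
Log2 difference between Cluster 12 and Cluster 10 in each mouse (points, by genotype) for H2-Eb1, H2-Aa, Cd74, Spp1, Fn1 and Gpnmb by time, with bars at the means. H2-Eb1 goes from a mean of 2.33 at 1 d to 6.29 at 14 d, and Spp1 from 0.64 to -4.70.

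The list median of damage-associated genes was -0.55 in the uninjured mouse, -0.33 at 1 d, -1.70 at 7 d and -2.65 at 14 d. At 7 d it was -2.05 in WT replicate 1, -0.15 in cKO replicate 1 and -2.30 in cKO replicate 2. Genes of the list differed at 1 d, where Cd63 was at -2.58, Igf1, a growth factor, at -1.16 and Cd9 at -1.03, each lower in 3 of 3 mice, while Apoe was at 0.15. Spp1, the secreted matrix protein osteopontin (chromosome 5, 104435118 to 104441050, plus strand), was at 16548 CPM in Cluster 12 of WT replicate 1, 13260 in cKO replicate 1 and 7019 in cKO replicate 2 at 1 d, against 10185, 8754 and 4539 CPM in Cluster 10. At 7 d Cluster 12 had 181, 6405 and 6.12 CPM and Cluster 10 had 12064, 9026 and 1225, and at 14 d Cluster 12 had 31.8, 178 and 23.6 CPM against 2403, 4540 and 2074. Both clusters thus carried Spp1 at 1 d. At 14 d Cluster 12 had 178 CPM or less, while Cluster 10 still had at least 2074. Cluster 10 was also lower at 14 d than at 1 d for each genotype and replicate number. The mice at 7 d are split by cKO replicate 1.

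In the edgeR fit the Spp1 change from 1 d to 7 d was -4.23 ± 1.11 (SE) with an adjusted p of 0.262, lower in 3 of 3 mice at 7 d than in all 3 at 1 d, and did not pass. Over 18 alternatives it lay between -7.54 and -2.60, with an adjusted p from 7.78e-22 to 0.714, past the threshold in 4. DESeq2 was among those that called it, at -5.42, and so was the fit with a replicate block, at -4.20 (adjusted p 0.0302). The lysosomal list had medians of -0.62, -1.19 and -1.64 at 1, 7 and 14 d, and the lipid and iron list 0.15, -1.21 and -1.45. In cKO replicate 1 at 7 d they were only -0.41 and -0.19, against -1.31 and -1.41 in cKO replicate 2 and lower values still in WT replicate 1.

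List medians at 1, 7 and 14 d were 2.65, 1.76 and 1.89 for monocyte genes, 1.52, -0.04 and 0.27 for chemokines and cytokines (0.60, -0.84 and 0.89 in WT replicate 1, cKO replicate 1 and cKO replicate 2 at 7 d), -2.12, -0.60 and -0.03 for red blood cell genes (-0.90, -0.03 and -5.47 in the mice at 1 d), -1.90, -1.62 and -1.73 for homeostatic microglia genes, -2.79, -2.10 and -2.04 for complement, and 0.62, 1.01 and 1.13 for border macrophages. Fn1 had differences of 1.85, 1.92 and 4.11 at 1 d, in the order WT replicate 1, cKO replicate 1, cKO replicate 2. They were -1.83, -1.26 and 1.00 for 7 d and 0.12, -2.63 and 1.11 for 14 d. Its edgeR change from 1 d to 7 d of -3.04 had an adjusted p of 0.418, with all 3 mice at 7 d below all 3 at 1 d, and the range over 18 alternatives was 1.09e-07 to 0.734. With the replicate block it was called, at -3.45 (adjusted p 0.00655).

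From 7 d to 14 d edgeR called 0 of 1297 genes (0%), with 59 at an unadjusted p of 0.05, and DESeq2 and limma called 0 each. The smallest p-values belonged to Ifitm3 (2.18), F13a1 (2.91) and Pltp, a phospholipid transfer protein (3.14), all with an adjusted p of 0.667. For H2-Eb1 the means of 5.54 and 6.29 differ by less than the SD of the mice at 7 d. Without WT replicate 1 at 7 d there were 3 genes, without cKO replicate 1 at 7 d there were 4, and without cKO replicate 2 at 7 d there was 1, Fabp5.

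Loss of Ryk from astrocytes was compared in the same fit. Between cKO and WT mice edgeR called 0 of 1297 genes (0%) for the difference between the clusters, with 62 at an unadjusted p of 0.05, and DESeq2 and limma called 0 each. The smallest p-values belonged to Alcam, an adhesion molecule (2.23), Lair1, an inhibitory collagen receptor (-2.54), and Tmcc3, a membrane protein of the endoplasmic reticulum (-1.55), each with an adjusted p of 0.888. Alcam had differences of 1.98, 0.42, 0.43 and -0.20 in the 4 WT mice and 1.24 to 3.23 in the 6 cKO mice.

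The WT and cKO groups are unlike in time, since the WT group alone holds an uninjured mouse, whose MHC class II median was 1.21. List medians in WT and cKO mice were 3.47 and 4.53 for MHC class II, 2.15 and 2.05 for monocytes, -1.68 and -1.98 for homeostatic microglia, -1.53 and -1.45 for damage-associated microglia, and -1.10 and -1.07 for lysosomes, against 0.09 and 0.05 for all genes. With 3 injured WT mice, all of batch 1, genotype rests on few animals, and a p that misses the threshold does not show that the genotypes are alike.

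Promoters of MHC class II genes are shown because H2-Eb1 and H2-Aa had the largest differences among called genes and their kind shares a known regulatory element. Such promoters hold a Y box, an inverted CCAAT motif bound by NF-Y, which works with the factors that recruit Ciita. Of the 7 genes 4 had promoters in the RefSeq table (build GRCm38.p6): H2-Aa, H2-Eb1, H2-DMa, with 2 entries, and H2-DMb1. H2-Ab1, Cd74 and Ciita had none. The letters CTGATTGG were searched on both strands (CCAATCAG on the other) in the 250 bases before each start. In this exact form they occur in H2-Aa and H2-Eb1, the pair of these 4 genes called higher, and in 1258 of 32851 promoters, 3.83%. On the strand of the gene 608 promoters hold them. The promoter of H2-DMb1, which was not called, holds the same letters except for the first, and so has an inverted CCAAT too. Entry 2 of H2-DMa, also not called, has an inverted CCAAT as well. The exact search therefore does not show that a Y box sets called genes apart from uncalled ones. The H2-Aa promoter is chr17:34287824-34288073 on the minus strand, with the motif starting at -51 from the gene's start, and the H2-Eb1 promoter is chr17:34305617-34305866 on the plus strand, with the motif at -62. Capitals mark the motif, and both run 5′ to 3′. A match is a description of letters and shows no binding.
H2-Aa: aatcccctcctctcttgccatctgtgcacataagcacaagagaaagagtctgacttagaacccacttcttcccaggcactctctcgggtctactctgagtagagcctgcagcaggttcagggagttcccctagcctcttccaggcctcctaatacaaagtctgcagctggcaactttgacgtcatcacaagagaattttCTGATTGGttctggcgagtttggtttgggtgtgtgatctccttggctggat
H2-Eb1: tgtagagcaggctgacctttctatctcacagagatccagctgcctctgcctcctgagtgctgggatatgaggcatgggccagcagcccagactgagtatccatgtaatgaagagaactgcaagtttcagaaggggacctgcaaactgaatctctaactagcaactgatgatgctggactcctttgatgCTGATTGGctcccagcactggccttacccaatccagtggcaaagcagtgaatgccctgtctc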

How the data were processed

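The deposited matrix holds raw UMI counts per gene and cell, and the deposited cell table gives UMI and gene counts and the percent of mitochondrial and haemoglobin UMIs of each cell. The authors made them with Cell Ranger on mm10 and Seurat in R 4.1.2, kept cells with under 25% mitochondrial UMIs and over 200 genes, joined libraries with Harmony and made Leiden clusters. No cell lies beyond those limits. Their methods name no doublet caller, and none was run here.

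UMIs of Clusters 12 and 10 were summed per mouse and scaled to CPM with Python 3.11.15, numpy 2.4.6, scipy 1.17.1, pandas 2.3.3 and matplotlib 3.10.9. A gene was compared with at least 20 UMIs in all and a mean of at least 50 CPM in either cluster. The log2 difference within each mouse used a pseudocount of 50 CPM, and a call needed a mean of at least 1 in size and the same sign in every mouse. Effects of genotype and time on the difference were fitted with edgeR 4.0.16 in R 4.3.3 (quasi-likelihood, TMM, filterByExpr, Benjamini-Hochberg, two-sided), leaving 5 residual degrees of freedom; DESeq2 1.42.0 and limma 3.58.1 were alternatives. The procedures were tested on simulated data.

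Members and gene lists were chosen with earlier results of these data known. Named are the 242 genes of 26 lists, up to 15 called genes with the largest and 15 with the smallest difference, and for each tested comparison up to 5 genes per direction past the threshold, or the 3 with the smallest p where none passed. Gene IDs and positions are those of GENCODE vM21, matched by symbol. Replicate number equals batch; deviations of same-numbered cKO mice from their group mean correlated across 4178 genes at r = -0.00366, 0.0260 and 0.0963 between times, a description, as genes are not independent. Alternatives changed the pseudocount, scaling, gene filter, cell minimum, mitochondrial limit, call rule, mice and condition names, left out each mouse, and left out cells with markers of other types. Of the 6 mice not compared, each had under 10 cells in at least 1 cluster.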

Additional observations from a re-analysis of the deposited data

Results flagged for a closer look

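H2-Eb1, the I-E beta chain, differed between times: its Cluster 12 to Cluster 10 difference was larger at 7 d than at 1 d by 6.03 (log2, edgeR adjusted p 0.0164, 3 of 3 mice above 3 of 3; 0.00125 to 0.427 over the alternatives). What made the size of that change was not tested.

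Of the 169 compared genes of the lists, a further 8 had differences of opposite sign in all 3 mice of each of a pair of times. No count over all 4178 genes, or by chance, is given beside these 8 genes, so they show no excess. In the edgeR fit of 7 d against 1 d and 14 d against 7 d, 7 of them did not pass; Cd36 had too few counts for the fit. Some alternatives gave calls, such as Spp1 for 7 d against 1 d in 4 of 18, and Ccl6 for 14 d against 7 d without cKO replicate 1 at 7 d. Spp1, osteopontin, had a mean difference of 0.64 at 1 d, -3.57 at 7 d and -4.70 at 14 d. Mitf, a factor of lysosome and osteoclast genes, was at 0.56, -0.84 and -1.69. Cd36, a scavenger receptor for oxidised lipids, went the other way, from -0.76 at 1 d to 1.13 at 7 d and 0.86 at 14 d.

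The rest differed in sign between 1 d and 14 d. Ccl6, a chemokine of myeloid cells, was at 1.70 and -1.57, and Lgals3, the lectin galectin-3, at 1.47 and -0.70. Plin2, which coats lipid droplets, was at 0.87 and -0.47, Itgb2, the common chain of leukocyte integrins, at 0.70 and -0.63, and Ftl1, the ferritin light chain, at 0.18 and -1.45. Among the 50 called genes named by the rule, 0 had a mouse far from the other 9 by Dixon's criterion.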

How the results depend on the processing

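For the 50 genes called and named, all 1300 values over 26 settings had the same sign, and 66 of them moved by more than the spread of the mice. A call already needed the same sign in every mouse. Settings that only left out mice, changed the pseudocount or dropped the gene filter could therefore not turn a sign. The shared sign is no test of direction under those settings. The size of the counts depended on the settings. Against 93 higher and 91 lower, a pseudocount of 200 CPM gave 30 and 36, TMM scaling 60 and 139, allowing 1 mouse to differ 151 and 141, the mice of replicate 2 alone 321 and 171, and the WT mice alone 177 and 163. At least 5 cells gave 35 higher and 72 lower, and the cKO mice alone 145 higher and 136 lower. TMM moved the median of the compared genes from 0.07 to -0.15. Leaving out each mouse gave 90 to 117 higher and 90 to 109 lower. Chosen after seeing the data were leaving out the uninjured and 14 d mice (127 and 121), cells with T, NK or B cell markers (119 and 99) and cells with shared barcodes (88 and 87).

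Among genes tested for 7 d against 1 d, where 1 passed, DESeq2 gave 2 (H2-Eb1 and Spp1), limma 0, no filter on low counts 20, at least 20 cells 0, and leaving out each mouse 0 to 37. With the replicate block there were 3, H2-Eb1 at 6.04 (adjusted p 0.00676), Fn1 at -3.45 (0.00655) and Spp1 at -4.20 (0.0302), with all 3 mice at 7 d on the same side of all 3 at 1 d; over 18 alternatives their adjusted p ran from 0.00125 to 0.427, 1.09e-07 to 0.734 and 7.78e-22 to 0.714. For 14 d against 7 d, where 0 passed, no filter gave 20 and leaving out each mouse 0 to 4, and at least 20 cells gave no value. For genotype, no filter gave 1, Gpnmb at 5.51. The causes were not tested.

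Shares of Cluster 12 cells depend on depth and on the number of markers asked for. With 3 markers in place of 2 they were 21.9% for homeostatic and 64.6% for damage-associated microglia, 57.3% for monocytes, 14.9% for border macrophages, 17.7% for oligodendrocytes, 2.08% each for astrocytes and neurons, 0.694% for red blood cells and 0% for neutrophils. Thinned to 500 UMIs they were 9.01%, 63.5%, 55.8%, 11.6%, 9.44%, 1.72%, 2.15%, 0% and 0% in the same order, and 0.429% for dendritic cells, 1.29% for endothelial cells and 0% for fibroblasts. Clusters of 10 cells and 11044 UMIs limit what can be seen in single mice.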
